A study of Homo sapiens with 12 samples.

Results

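Menin and the histone methyltransferase MLL (KMT2A) bind together at the promoters of a set of genes that leukaemia cells keep switched on. The HOX genes are the best known of them. The 8 genes described here are menin-MLL targets that lie outside the HOX clusters: ADGRA3, SATB1, JMJD1C, IGF2BP2, MEF2C, ZEB2, TCF4 and LMO2. They were named from what is known of menin-MLL leukaemia, with earlier results of these libraries known, and they are 8 of the 78930 genes read from the deposited counts. All 8 had enough counts to be among the 24064 genes tested.

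RNA was measured in OCI-AML3 cells, a human acute myeloid leukaemia line with a frameshift mutation in NPM1 that sends the nucleophosmin protein (NPM1c) to the cytoplasm. In the degron derivative used here the mutant protein carries a tag, so that the small molecule dTAG-13 marks it for degradation, while a normal NPM1 allele remains. All groups were this derivative of a single line. The dTAG FL-NPM1c group received a lentivirus for full-length NPM1c and then dTAG-13. The dTAG C-body null group was given a virus with a construct labelled Cbodynull-mCherry, and then dTAG-13. The dTAG mCherry group received a lentivirus for the red fluorescent protein mCherry alone, and then dTAG-13. The drug was given at 500 nM, 48 hours after transduction, and cells positive for mCherry were collected by FACS after another 24 hours. The NTC DMSO group is named for the solvent in its titles, although its treatment label reads dTAG, and its labels name no construct. Comparisons with NTC DMSO may therefore include the virus and the sort as well as the drug, and these cannot be told apart. Each group had 3 libraries.

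Menin is an adaptor that docks MLL, with the chromatin reader LEDGF (PSIP1), onto active promoters, where MLL methylates lysine 4 of histone H3. In leukaemia with an MLL fusion or with NPM1c, this complex holds stem cell genes such as HOXA9 and MEIS1 in an active state, and inhibitors of the menin-MLL contact turn many of them off. The genes considered here act at different levels of the cell. ADGRA3 is an adhesion receptor at the surface, SATB1 and JMJD1C act on chromatin, IGF2BP2 binds RNA, MEF2C, ZEB2 and TCF4 bind DNA at defined motifs, and LMO2 bridges other DNA-binding proteins.

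The start regions of the 4 genes that fell in dTAG mCherry cells relative to NTC DMSO cells are shown first, since MLL complexes are known to act at promoters and one of the domains of MLL binds unmethylated CpG dinucleotides. Each line holds the 250 bases before the RefSeq start nearest to the gene's annotated 5′ end (GRCh38.p14, minus strand, written 5′ to 3′ towards the gene), with CpG in capitals. The windows are chr4:22516067-22516316 for ADGRA3, chr3:18445593-18445842 for SATB1, chr10:63521891-63522140 for JMJD1C and chr3:185825043-185825292 for IGF2BP2.
ADGRA3: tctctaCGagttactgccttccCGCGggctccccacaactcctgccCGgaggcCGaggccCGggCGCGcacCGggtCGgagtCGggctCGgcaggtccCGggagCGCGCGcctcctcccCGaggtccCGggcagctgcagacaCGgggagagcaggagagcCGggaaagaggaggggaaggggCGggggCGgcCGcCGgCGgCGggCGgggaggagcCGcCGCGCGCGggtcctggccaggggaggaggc
SATB1: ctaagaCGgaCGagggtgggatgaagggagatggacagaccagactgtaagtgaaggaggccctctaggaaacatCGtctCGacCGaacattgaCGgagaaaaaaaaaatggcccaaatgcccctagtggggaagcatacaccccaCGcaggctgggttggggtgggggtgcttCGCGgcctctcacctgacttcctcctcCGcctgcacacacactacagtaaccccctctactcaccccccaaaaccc
JMJD1C: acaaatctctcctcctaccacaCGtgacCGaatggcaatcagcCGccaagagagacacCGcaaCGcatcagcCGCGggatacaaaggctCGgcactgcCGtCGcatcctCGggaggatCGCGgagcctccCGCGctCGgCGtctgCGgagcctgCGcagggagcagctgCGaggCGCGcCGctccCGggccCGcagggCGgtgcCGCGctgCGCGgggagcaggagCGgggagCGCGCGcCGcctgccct
IGF2BP2: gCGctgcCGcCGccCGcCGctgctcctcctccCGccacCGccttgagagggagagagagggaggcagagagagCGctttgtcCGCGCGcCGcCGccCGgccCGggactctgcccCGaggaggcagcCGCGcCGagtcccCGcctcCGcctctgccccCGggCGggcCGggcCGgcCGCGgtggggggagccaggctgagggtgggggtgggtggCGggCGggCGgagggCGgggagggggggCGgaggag
The ADGRA3 and IGF2BP2 windows held 32 CpG each, more than 90.5% of the 35116 RefSeq windows of that length. JMJD1C held 35, more than 94.2% of them, while SATB1 held 10, more than 47.8% and close to the median of 11. SATB1 has 4 RefSeq windows with 6 to 24 CpG, so its value depends on the start that is read. JMJD1C has 3 windows with 5 to 35 CpG, and IGF2BP2 has 2 with 2 and 32. Gene counts do not tell which start was in use. RefSeq windows were matched for 7 of the 8 genes. Those read for MEF2C, ZEB2 and TCF4 held 6, 12 and 2 CpG, more than 38.1%, 51.5% and 14.7% of all windows. MEF2C has windows with 0 to 28 CpG and TCF4 with 0 to 26. A link between CpG and the calls was not tested. The letters TGACAG, the core that MEIS proteins bind, were searched on both strands and occurred in the window of MEF2C and in no other of the 7, and in 13.03% of all windows. TGATTTAT, the joint motif of HOX and PBX proteins, occurred in none of the 7 and in 0.75% of all windows. The start that was read lay 28830 bases from the annotated 5′ end for TCF4 and 4464 bases from it for ZEB2. TCF4 has 10 RefSeq windows and MEF2C has 7, and a single window of each gene was searched. Presence or absence of these letters therefore depends on the start that is read.

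The 12 libraries held between 30519165 and 59925564 gene counts. NPM1 itself was read at 1608 to 1684 CPM in dTAG FL-NPM1c, 1897 to 1937 in dTAG C-body null, 1059 to 1387 in dTAG mCherry and 1296 to 1515 in NTC DMSO. CPM is the count scaled by library size and TMM factor, and since the drug removes protein, these transcript levels do not check the degradation. The line showed its myeloid identity: 6 of 8 myeloid blast markers (CD33, MPO, CEBPA, ELANE, AZU1, PRTN3) reached 1 CPM in every group, while KIT had 0 counts and CD34 stayed at or under 0.302 CPM. The defining T cell genes CD3D, CD3E and CD2 had 0 counts, and the summed T and NK, B and plasma, plasmacytoid dendritic, erythroid and epithelial markers reached at most 6.43 CPM in any library. A pair of libraries stood apart: dTAG mCherry replicate 2 and NTC DMSO replicate 3 deviated together from their group means (residual correlation 0.40, the highest of 54 pairs from different groups). Mitochondrial transcripts took 7.32% to 9.63% of counts in dTAG mCherry and 6.83% to 7.63% in the other 9 libraries. Nothing in the labels says that replicates were separate cultures, so p-values cover the spread between these libraries, which may be technical. In bulk RNA, fewer expressing cells and less RNA per cell cannot be told apart.

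The calls differed among the 8 genes. ADGRA3 and SATB1, a surface receptor and a chromatin organiser, were lower in dTAG mCherry than in NTC DMSO and higher with FL-NPM1c than in dTAG mCherry. JMJD1C and IGF2BP2 were also lower in dTAG mCherry, but with FL-NPM1c their values passed the test against dTAG C-body null and not against dTAG mCherry. MEF2C, ZEB2, TCF4 and LMO2 were not called in dTAG mCherry against NTC DMSO. Of these 4, MEF2C was higher with FL-NPM1c than with C-body null, LMO2 was higher with FL-NPM1c than in NTC DMSO, TCF4 was lower with C-body null than in NTC DMSO, and ZEB2 was not called in any comparison. Differences between genes were not tested. A gene was called where the edgeR p-value, adjusted by Benjamini-Hochberg over all 24064 genes, was under 0.05.

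In dTAG mCherry against NTC DMSO, the comparison that bears on the loss of NPM1c, 4 of the 8 genes were lower and 0 were higher. The background was 22.6% of all genes called in either direction, 9.69% lower and 12.9% higher. The median log2 fold change of the 8 was -0.30, beside -0.002 over all genes tested. The 4 genes called were also those whose libraries did not overlap between the groups, which held for 32.1% of all genes tested.

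The comparison of dTAG FL-NPM1c with dTAG mCherry sets cells given the FL-NPM1c virus before the drug beside cells given mCherry alone. Since the virus came before the drug, a return of NPM1c after its loss was not tested. Of the 8 genes, 2 were higher and 0 were lower, against a background of 15.5% called, 7.58% higher and 7.95% lower. The median was 0.16, beside -0.002 over all genes, and the libraries did not overlap for 4 of the 8, against 32.4% of all genes. DESeq2 called 3 of the 8 higher, IGF2BP2 being the added gene, against 9.21% of the genes it tested.

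In dTAG C-body null against dTAG mCherry, 0 of the 8 genes were called, and the background was low too, at 0.594% of all genes in either direction (0.216% higher and 0.378% lower). At an unadjusted p under 0.05, 4 of the 8 were lower and 0 were higher in edgeR, where 6.37% of all genes were lower by that rule, and DESeq2 called 0. The median log2 fold change was -0.19, beside -0.013 over all genes. For 4 genes, ADGRA3, SATB1, MEF2C and IGF2BP2, each C-body null library lay below each dTAG mCherry library, as held for 7.60% of all genes tested. Without dTAG mCherry replicate 2 and NTC DMSO replicate 3, 3 genes were called lower: ADGRA3 (-0.25, adjusted p = 0.017), MEF2C (-0.32, adjusted p = 0.016) and IGF2BP2 (-0.21, adjusted p = 0.033). With that omission 8.68% of all genes were called lower. NTC DMSO replicate 3 is in neither group of this comparison, so leaving it out acts only through the fit that all libraries share. The pair was also picked from these same data. Without dTAG mCherry replicate 2 alone, 0 were called.

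The 2 constructs were compared directly in dTAG FL-NPM1c against dTAG C-body null. There 5 of the 8 genes were higher and 0 were lower, against a background of 9.68% called, 4.82% higher and 4.86% lower. The median was 0.40, beside 0.005 over all genes. The libraries did not overlap for 6 of the 8, the 5 called genes and LMO2, against 35.1% of all genes.

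The remaining comparisons set each construct beside the NTC DMSO cells. In dTAG FL-NPM1c against NTC DMSO, 1 gene was higher and 1 was lower, against a background of 27.9% called, 14.6% higher and 13.3% lower. In dTAG C-body null against NTC DMSO, 5 were lower and 0 were higher, against 26.6% of all genes called, 12.4% lower and 14.1% higher. The medians were -0.04 and -0.49, beside 0.023 and -0.001 over all genes. The libraries did not overlap for 4 of the 8 genes with FL-NPM1c (43.5% of all genes) and for 7 of the 8 with C-body null (40.4% of all genes). All 6 comparisons draw on 4 groups, so those that share a group are not independent of each other.

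**Figure D1:**
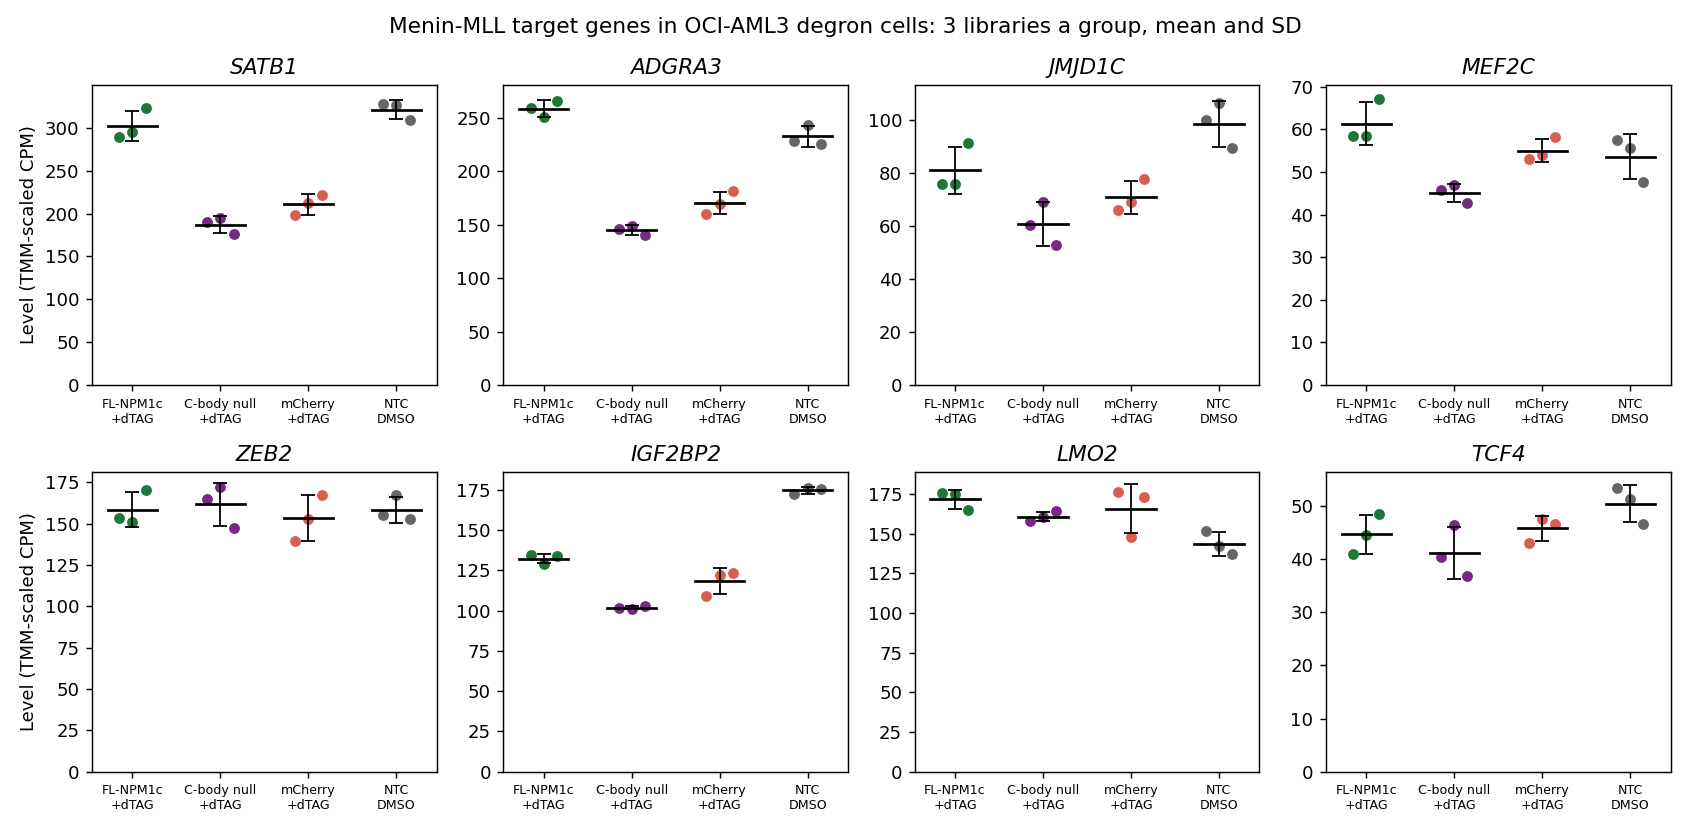
Level of each of the 8 genes in TMM-scaled CPM (vertical axes from 0) in the 4 groups; points are libraries, horizontal bars are means and error bars are SD (n = 3). ADGRA3 and SATB1 in dTAG FL-NPM1c lie above dTAG C-body null and dTAG mCherry, while ZEB2 stays near 158.3 CPM in dTAG FL-NPM1c and in NTC DMSO.

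ADGRA3 (ENSG00000152990, chromosome 4, 22345071 to 22516054, minus strand, GRCh38) encodes an adhesion G protein-coupled receptor, also known as GPR125. Its level was 259.2, 250.6 and 266.2 CPM in the dTAG FL-NPM1c libraries. In dTAG C-body null it was 145.8, 149.0 and 140.4 CPM, and in dTAG mCherry it was 160.5, 169.2 and 181.4 CPM. In NTC DMSO it was 228.7, 243.8 and 226.0 CPM. Every FL-NPM1c library was above every library of the other groups, and every C-body null library was below every library of the other groups. ADGRA3 fell by 0.45 ± 0.07 (SE) on the log2 scale in dTAG mCherry against NTC DMSO (adjusted p = 1.7e-04). With FL-NPM1c it was 0.60 ± 0.07 higher than in dTAG mCherry (adjusted p = 3.5e-05), a 51.9% higher level. It was 0.83 ± 0.07 higher than with C-body null (adjusted p = 7.8e-07), the largest difference of the 8 genes in any of the 6 comparisons. Against NTC DMSO, FL-NPM1c gave 0.15 ± 0.07 (adjusted p = 0.12) and C-body null gave -0.68 ± 0.07 (adjusted p = 1.6e-06). C-body null against dTAG mCherry gave -0.23 ± 0.07 (adjusted p = 0.20).

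SATB1 (ENSG00000182568, chromosome 3, 18345387 to 18445588, minus strand) encodes a nuclear protein that binds AT-rich DNA and folds chromatin into loops. It had 289.5, 295.4 and 322.5 CPM in dTAG FL-NPM1c and 189.8, 195.1 and 176.6 CPM in dTAG C-body null. It had 198.1, 212.3 and 221.9 CPM in dTAG mCherry and 328.2, 326.6 and 308.7 CPM in NTC DMSO. The FL-NPM1c and NTC DMSO libraries overlapped, and both groups lay above all C-body null and mCherry libraries. SATB1 fell by 0.61 ± 0.07 in dTAG mCherry against NTC DMSO (adjusted p = 1.2e-05), or by 34.4%. FL-NPM1c was 0.52 ± 0.07 above dTAG mCherry (adjusted p = 2.0e-04) and 0.69 ± 0.07 above C-body null (adjusted p = 9.8e-06). Its difference from NTC DMSO with FL-NPM1c was -0.09 ± 0.07 (adjusted p = 0.40). With C-body null SATB1 was lower than in NTC DMSO (-0.78 ± 0.07, adjusted p = 6.1e-07), and against dTAG mCherry the value was -0.17 ± 0.07 (adjusted p = 0.38).

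The calls of ADGRA3 and SATB1 in these 4 comparisons, dTAG mCherry and C-body null against NTC DMSO and FL-NPM1c against dTAG mCherry and C-body null, held under each alternative tried, including the omission of each library.

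JMJD1C (ENSG00000171988, chromosome 10, 63167221 to 63521850, minus strand) encodes a nuclear protein of the JmjC histone demethylase family. It had 76.1, 75.9 and 91.3 CPM in dTAG FL-NPM1c, and 60.6, 69.3 and 52.9 CPM in dTAG C-body null. It had 66.0, 69.1 and 77.9 CPM in dTAG mCherry, and 100.1, 106.6 and 89.5 CPM in NTC DMSO. All mCherry and C-body null libraries lay below all NTC DMSO libraries, while FL-NPM1c overlapped both dTAG mCherry and NTC DMSO. JMJD1C fell by 0.48 ± 0.11 in dTAG mCherry against NTC DMSO (adjusted p = 0.0042), and C-body null against NTC DMSO was -0.70 ± 0.11 (adjusted p = 1.5e-04). FL-NPM1c against dTAG mCherry was 0.19 ± 0.11 (adjusted p = 0.24). FL-NPM1c against C-body null was 0.41 ± 0.11 (adjusted p = 0.022). That call ended without C-body null replicate 1 (adjusted p = 0.083) or 3 (adjusted p = 0.14), and without FL-NPM1c replicate 1 (adjusted p = 0.058) or 3 (adjusted p = 0.10). FL-NPM1c against NTC DMSO was -0.28 ± 0.11 (adjusted p = 0.061), a value that passed the test in DESeq2 (adjusted p = 0.031). It also passed without NTC DMSO replicate 3 (adjusted p = 0.025) or FL-NPM1c replicate 3 (adjusted p = 0.027). C-body null against dTAG mCherry was -0.22 ± 0.11 (adjusted p = 0.44).

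IGF2BP2 (ENSG00000073792, chromosome 3, 185643739 to 185825056, minus strand) encodes an RNA-binding protein that stabilises mRNAs carrying N6-methyladenosine. It had 134.2, 129.1 and 133.6 CPM in dTAG FL-NPM1c, and 101.7, 101.0 and 102.6 CPM in dTAG C-body null. It had 109.1, 122.3 and 123.4 CPM in dTAG mCherry, and 172.1, 176.3 and 175.7 CPM in NTC DMSO. The 4 groups did not overlap with one another, in the order NTC DMSO, FL-NPM1c, mCherry and C-body null from high to low. IGF2BP2 fell by 0.56 ± 0.07 in dTAG mCherry against NTC DMSO (adjusted p = 1.5e-05), by 0.78 ± 0.07 in C-body null against NTC DMSO (adjusted p = 2.9e-07) and by 0.40 ± 0.07 in FL-NPM1c against NTC DMSO (adjusted p = 4.8e-04). It was the 1 gene of the 8 that was called lower with FL-NPM1c than in NTC DMSO, at 132.3 ± 2.80 CPM in dTAG FL-NPM1c and 174.7 ± 2.30 CPM in NTC DMSO (SD, n = 3 each). FL-NPM1c against C-body null was 0.38 ± 0.07 (adjusted p = 0.0017). FL-NPM1c against dTAG mCherry was 0.16 ± 0.07 (adjusted p = 0.12; DESeq2 adjusted p = 0.042), and C-body null against dTAG mCherry was -0.22 ± 0.07 (adjusted p = 0.23).

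MEF2C (ENSG00000081189, chromosome 5, 88717117 to 88904257, minus strand) encodes a MADS-box transcription factor known for its part in MLL leukaemia. It had 58.6, 58.4 and 67.2 CPM in dTAG FL-NPM1c, and 45.8, 46.9 and 42.7 CPM in dTAG C-body null. It had 53.0, 53.9 and 58.2 CPM in dTAG mCherry, and 57.6, 55.6 and 47.6 CPM in NTC DMSO. C-body null was below every library of the other groups, FL-NPM1c was above every library of the other groups, and mCherry and NTC DMSO overlapped. FL-NPM1c was 0.44 ± 0.09 above C-body null (adjusted p = 0.0039), while dTAG mCherry against NTC DMSO was 0.04 ± 0.09 (adjusted p = 0.81). C-body null against NTC DMSO was -0.25 ± 0.09 (adjusted p = 0.051), which passed without NTC DMSO replicate 3 (-0.33, adjusted p = 0.010) and in DESeq2 (adjusted p = 0.031). C-body null against dTAG mCherry was -0.29 ± 0.09 (adjusted p = 0.23), FL-NPM1c against dTAG mCherry was 0.16 ± 0.09 (adjusted p = 0.24) and FL-NPM1c against NTC DMSO was 0.20 ± 0.09 (adjusted p = 0.11).

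ZEB2 (ENSG00000169554, chromosome 2, 144364364 to 144524583, minus strand) encodes a zinc finger repressor that binds E-box sequences and takes part in myeloid differentiation. It had 153.5, 151.0 and 170.3 CPM in dTAG FL-NPM1c, and 165.1, 172.1 and 147.3 CPM in dTAG C-body null. It had 139.7, 153.0 and 167.4 CPM in dTAG mCherry, and 154.9, 167.4 and 152.5 CPM in NTC DMSO. The groups overlapped in all 6 comparisons, and the log2 fold changes lay between -0.05 and 0.07 with a SE of 0.09 (adjusted p from 0.73 to 1.0).

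TCF4 (ENSG00000196628, chromosome 18, 55222331 to 55664787, minus strand) encodes an E protein, a basic helix-loop-helix factor needed for plasmacytoid dendritic cells. It had 41.0, 44.4 and 48.4 CPM in dTAG FL-NPM1c, and 40.3, 46.4 and 36.8 CPM in dTAG C-body null. It had 43.1, 47.4 and 46.6 CPM in dTAG mCherry, and 53.3, 51.2 and 46.5 CPM in NTC DMSO. The groups overlapped except C-body null and NTC DMSO, where 46.4 CPM in the highest C-body null library stood beside 46.5 CPM in the lowest NTC DMSO library. TCF4 was lower in C-body null than in NTC DMSO (-0.29 ± 0.10, adjusted p = 0.034). The call ended without NTC DMSO replicate 1 (adjusted p = 0.13) or 2 (adjusted p = 0.10), and without C-body null replicate 1 (adjusted p = 0.10) or 3 (adjusted p = 0.16). The other 5 comparisons gave values from -0.18 to 0.12 with adjusted p from 0.19 to 0.83.

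LMO2 (ENSG00000135363, chromosome 11, 33858576 to 33892289, minus strand) encodes a LIM-domain adaptor that joins basic helix-loop-helix and GATA factors through LDB1. It had 175.5, 174.9 and 164.9 CPM in dTAG FL-NPM1c, and 158.3, 160.3 and 164.1 CPM in dTAG C-body null. It had 176.3, 148.1 and 173.3 CPM in dTAG mCherry, and 152.0, 142.5 and 137.0 CPM in NTC DMSO. Of the mCherry libraries, replicate 2 was the low one and overlapped NTC DMSO. LMO2 was the 1 gene of the 8 called higher with FL-NPM1c than in NTC DMSO, by 0.26 ± 0.08 (adjusted p = 0.022). That call ended without NTC DMSO replicate 2 (adjusted p = 0.14) or 3 (adjusted p = 0.054), and without FL-NPM1c replicate 1 (adjusted p = 0.15) or 2 (adjusted p = 0.078). LMO2 in dTAG mCherry against NTC DMSO had 0.21 ± 0.08 (adjusted p = 0.069), and leaving out mCherry replicate 2 gave 0.28 (adjusted p = 0.0063). C-body null against NTC DMSO was 0.16 ± 0.08 (adjusted p = 0.14), and the 3 comparisons among the dTAG groups lay between -0.04 and 0.09 (adjusted p from 0.49 to 0.83).

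**Figure D2:**
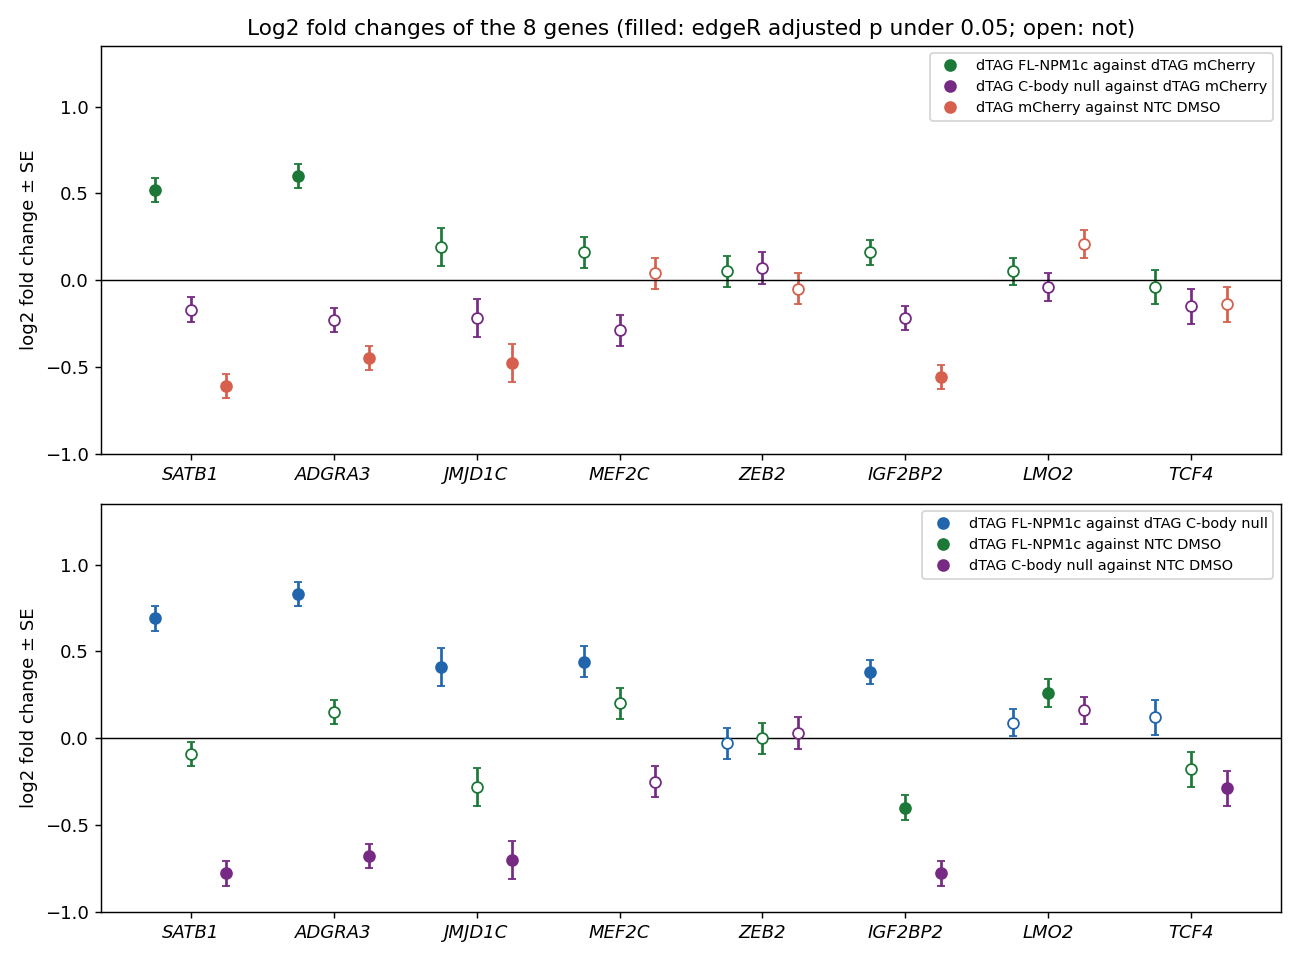
Log2 fold changes with SE (vertical axis) of the 8 genes in the 6 comparisons, filled where the edgeR adjusted p was under 0.05 and open where it was not. In the upper panel SATB1 and ADGRA3 are filled above 0 with FL-NPM1c against mCherry (0.52 and 0.60) and below 0 with mCherry against NTC DMSO (-0.61 and -0.45), and in the lower panel ADGRA3 reaches 0.83 with FL-NPM1c against C-body null.

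Levels were also divided by the kilobases of annotated exon of all transcripts of a gene together, 3.11 kb for LMO2 and 27.83 kb for TCF4. This is not the length of the transcripts in use, which is not known here, so the order of the genes depends on the annotation. By this measure LMO2 had the highest level of the 8 in each group. It averaged 55.3 CPM per kb in dTAG FL-NPM1c, 51.8 in dTAG C-body null, 53.4 in dTAG mCherry and 46.3 in NTC DMSO. TCF4 had the lowest level, between 1.48 CPM per kb in dTAG C-body null and 1.81 in NTC DMSO. The 4 genes called in dTAG mCherry against NTC DMSO lay between, from JMJD1C at 6.41 CPM per kb in dTAG mCherry and 8.92 in NTC DMSO to IGF2BP2 at 24.98 in dTAG mCherry and 36.9 in NTC DMSO. ADGRA3 and IGF2BP2 were level with FL-NPM1c, at 27.97 and 27.94 CPM per kb. In C-body null cells IGF2BP2 stood at 21.5 and ADGRA3 at 15.7 CPM per kb, and in NTC DMSO cells IGF2BP2 stood at 36.9 and ADGRA3 at 25.2 CPM per kb.

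Markers of monocytes moved in the same comparisons. All 11 listed monocyte markers, which include LYZ, CD14 and S100A8, were higher in dTAG mCherry than in NTC DMSO, and all 11 were higher in C-body null than in NTC DMSO. In FL-NPM1c against NTC DMSO 9 were higher and 1 lower, FCGR1A, at 16.98 CPM in dTAG FL-NPM1c and 30.54 CPM in NTC DMSO. Of all genes tested, 12.9% were higher in dTAG mCherry, 14.1% in C-body null and 14.6% in FL-NPM1c than in NTC DMSO. In FL-NPM1c against dTAG mCherry 4 were lower and 0 higher, and in FL-NPM1c against C-body null 7 were lower and 0 higher. In C-body null against dTAG mCherry 1 of the 11 was higher and 0 were lower. Over all genes 7.95% were lower in FL-NPM1c against dTAG mCherry and 4.86% in FL-NPM1c against C-body null. In C-body null against dTAG mCherry 0.216% of all genes were higher. The summed level of the 11 markers was 3259 to 3473 CPM in dTAG FL-NPM1c, 4820 to 5021 in dTAG C-body null, 3662 to 4065 in dTAG mCherry and 553.7 to 588.8 in NTC DMSO, and no marker of the list was at 0 in any group. LYZ alone made up most of each sum, with means of 2506, 3773, 2754 and 342.4 CPM in the same order of groups. Myeloid blast markers summed to 734.6 to 874.3 CPM in dTAG FL-NPM1c, 638 to 822.3 in dTAG C-body null, 519.8 to 704 in dTAG mCherry and 512.3 to 595.1 in NTC DMSO. Against NTC DMSO, of the 6 blast markers tested, 1 was higher in dTAG mCherry, 3 in FL-NPM1c and 5 in C-body null, and 0 were lower. FL-NPM1c had 3 higher and 1 lower against dTAG mCherry, and 1 higher and 2 lower against C-body null. C-body null against dTAG mCherry had 1 higher and 0 lower. The part of these differences in the values of the 8 genes was not tested.

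The wider menin-MLL programme was read from 21 other known targets, of which 16 had enough counts to be tested. EYA1, NKX2-3, PROM1, SKIDA1 and HMGA2 did not, with at most 0.370 CPM in any library. Between dTAG mCherry and NTC DMSO 2 were higher and 6 were lower (median log2 fold change -0.09), beside 12.9% and 9.69% of all genes. MEIS1, the homeodomain partner of HOX proteins, was at 13.2 ± 0.85 CPM in dTAG mCherry and 23.1 ± 1.31 CPM in NTC DMSO (SD, n = 3 each), and fell by 0.81 ± 0.09 (adjusted p = 3.9e-06). CDKN2C, an inhibitor of the kinases CDK4 and CDK6, was at 78.7 ± 9.74 CPM in dTAG mCherry and 131.6 ± 7.82 CPM in NTC DMSO, and fell by 0.74 ± 0.09 (adjusted p = 1.1e-05). These were the 2 largest changes among the targets called. The count of 8 was 5 without NTC DMSO replicate 2 and 5 without dTAG mCherry replicate 1.

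With FL-NPM1c against dTAG mCherry, where 7.58% of all genes were higher and 7.95% lower, 6 of the 16 were higher and 0 were lower (median 0.11). They were SOX4, a transcription factor of immature cells (0.63 ± 0.11, adjusted p = 9.3e-04), CDKN2C (0.62 ± 0.09, adjusted p = 2.1e-04) and the transcription factor RUNX2 (0.49 ± 0.08, adjusted p = 9.5e-04). The other three were the receptor tyrosine kinase FLT3 (0.39 ± 0.09, adjusted p = 0.0084), the growth regulator MYC (0.38 ± 0.07, adjusted p = 0.0022) and the membrane protein LAMP5 (0.33 ± 0.06, adjusted p = 0.0028). The call of FLT3 was lost when mCherry replicate 1 was left out (adjusted p = 0.058). Of 2 further values, chosen after they were seen, MEIS1 gave 0.25 in this comparison (adjusted p = 0.059), at 15.7 ± 0.48 CPM in dTAG FL-NPM1c and 13.2 ± 0.85 CPM in dTAG mCherry. FLT3 was higher in dTAG mCherry than in NTC DMSO (0.60, adjusted p = 1.3e-04) and higher again with FL-NPM1c, at 43.2 ± 2.72 CPM in dTAG FL-NPM1c, 33.1 ± 2.63 CPM in dTAG mCherry and 21.8 ± 1.83 CPM in NTC DMSO. With C-body null FLT3 was 0.93 above NTC DMSO (adjusted p = 7.6e-07), beside 0.98 with FL-NPM1c (adjusted p = 8.1e-07). FLT3 was not called between FL-NPM1c and C-body null.

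In C-body null against dTAG mCherry 1 of the 16 was higher and 1 was lower (median -0.12), beside 0.216% and 0.378% of all genes. MEIS1 was lower (-0.68 ± 0.09, adjusted p = 0.0019), at 8.23 ± 0.29 CPM in dTAG C-body null and 13.2 ± 0.85 CPM in dTAG mCherry. CCNA1, a cyclin known from germ cells and leukaemia, was higher (0.62 ± 0.10, adjusted p = 0.0068). Without dTAG mCherry replicate 2 the counts were 2 higher and 3 lower. Without both that library and NTC DMSO replicate 3 they were 5 higher and 5 lower, and DESeq2 called 5 higher and 1 lower. Calls over all genes moved as well. They were 761 higher and 638 lower of about 24560 genes without dTAG mCherry replicate 2. Without both libraries they were 1832 higher and 2125 lower of 24484, and in DESeq2 216 higher and 159 lower of about 18340.

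FL-NPM1c against C-body null had 6 of the 16 higher and 3 lower (median 0.18), with MEIS1 at 0.93 ± 0.09 (adjusted p = 3.6e-06) and CDKN2C at 0.86 ± 0.09 (adjusted p = 6.6e-06). Against NTC DMSO, FL-NPM1c had 5 higher and 4 lower (median -0.05), led by FLT3 at 0.98 ± 0.09 (adjusted p = 8.1e-07) and CCNA1 at 0.59 ± 0.10 (adjusted p = 6.0e-04). The 9 calls became 5 without NTC DMSO replicate 2. C-body null against NTC DMSO had 4 higher and 7 lower (median -0.13), led by MEIS1 at -1.49 ± 0.09 (adjusted p = 3.3e-09) and CCNA1 at 1.16 ± 0.10 (adjusted p = 3.4e-07). In the order given, 4.82%, 14.6% and 14.1% of all genes were higher in these comparisons, and 4.86%, 13.3% and 12.4% were lower. The targets thus moved in both directions, and both CCNA1 and FLT3 were called higher in each of the 3 dTAG groups than in NTC DMSO.

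**Figure D3:**
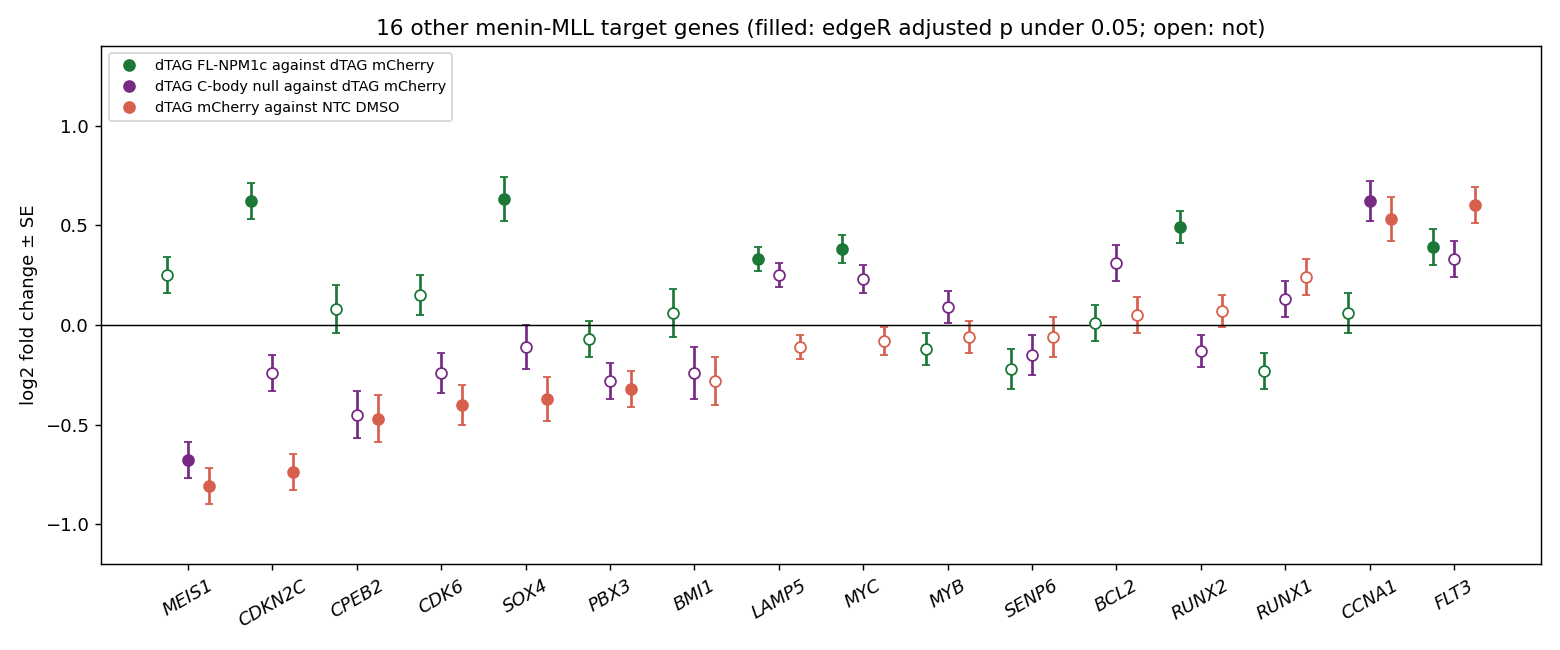
Log2 fold changes with SE (vertical axis) of 16 other menin-MLL targets in 3 comparisons, filled where the edgeR adjusted p was under 0.05. MEIS1 is filled below 0 for C-body null against mCherry (-0.68) and for mCherry against NTC DMSO (-0.81), and CDKN2C is at 0.62 for FL-NPM1c against mCherry and -0.74 for mCherry against NTC DMSO.

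Of the genes of the complex itself, KMT2A was called in none of the 6 comparisons, with log2 fold changes between -0.23 and 0.15 and adjusted p from 0.24 to 0.82. Its unadjusted p was over 0.05 in each, and DESeq2 did not call it. PSIP1 was lower than in NTC DMSO in each dTAG group, at -0.59 with FL-NPM1c (adjusted p = 4.8e-04), -0.69 with C-body null (adjusted p = 7.8e-05) and -0.47 with mCherry (adjusted p = 0.0031). MEN1, the gene of menin, was 0.35 ± 0.11 higher in FL-NPM1c than in dTAG mCherry (adjusted p = 0.040). That call ended under 8 of 14 alternatives, among them leaving out any FL-NPM1c library (adjusted p = 0.14, 0.11 and 0.061 without replicates 1, 2 and 3) or dTAG mCherry replicate 1 or 3 (adjusted p = 0.15 each). Of the 3 genes, 0 were called in C-body null against dTAG mCherry or in FL-NPM1c against C-body null. Over all genes 0.594% and 9.68% were called there. At an unadjusted p under 0.05, 1 of the 3 was higher and 1 was lower in C-body null against dTAG mCherry. By that rule 6.37% of all genes were lower, and the share that was higher was not counted.

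Close relatives of the 8 genes were read next, since a family can hold members that are not menin-MLL targets. Of 16 paralogues 13 were tested. With dTAG mCherry against NTC DMSO 4 were lower and 0 were higher (median -0.04): ZEB1 (-0.47 ± 0.09, adjusted p = 0.0015), IGF2BP3 (-0.30 ± 0.08, adjusted p = 0.0097), KDM3B (-0.23 ± 0.08, adjusted p = 0.042) and TCF3 (-0.30 ± 0.10, adjusted p = 0.042). Of all genes tested, 9.69% were lower and 12.9% were higher in that comparison. The ZEB1 call held under each of the 14 alternatives. IGF2BP3 was lost without NTC DMSO replicate 2 (adjusted p = 0.058) or mCherry replicate 1 (adjusted p = 0.056). KDM3B was lost without NTC DMSO replicate 1, 2 or 3 (adjusted p = 0.060, 0.15 and 0.071) or dTAG mCherry replicate 1 (adjusted p = 0.19). TCF3 was lost without NTC DMSO replicate 1 or 3 (adjusted p = 0.078 and 0.14) or dTAG mCherry replicate 1 or 3 (adjusted p = 0.063 and 0.16).

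In FL-NPM1c against dTAG mCherry 0 of the 13 paralogues were called, beside 15.5% of all genes, and DESeq2 called 0. At an unadjusted p under 0.05, 3 were higher and 0 were lower. The share of all genes by that rule was not counted. ZEB1, the relative of ZEB2, was at 62.4 ± 5.94 CPM in dTAG FL-NPM1c, 44.2 ± 3.35 in dTAG C-body null, 58.2 ± 4.44 in dTAG mCherry and 80.9 ± 6.52 in NTC DMSO. IGF2BP3 and IGF2BP2 were both lower than in NTC DMSO in each dTAG group.

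In C-body null against dTAG mCherry, where 0.594% of all genes were called, IGF2BP3 was the 1 paralogue called, and it was lower (-0.37 ± 0.08, adjusted p = 0.044). It was lost without any C-body null library (adjusted p = 0.21, 0.089 and 0.30 without replicates 1, 2 and 3) or without dTAG mCherry replicate 1 or 3 (adjusted p = 0.19 and 0.15). In FL-NPM1c against C-body null 4.82% of all genes were higher and 4.86% lower. That comparison had 3 paralogues higher, ZEB1 (0.50, adjusted p = 0.0024), IGF2BP3 (0.28, adjusted p = 0.032) and TCF3 (0.35, adjusted p = 0.039). LMO3 was lower there (-1.10 ± 0.25, adjusted p = 0.010), at 0.408 CPM in dTAG FL-NPM1c and 0.859 CPM in dTAG C-body null. The IGF2BP3 call ended without any 1 of the 6 libraries (adjusted p from 0.071 to 0.20). TCF3 was lost without C-body null replicate 1 or 2 (adjusted p = 0.13 and 0.23) or any FL-NPM1c library (adjusted p from 0.057 to 0.14), and LMO3 without C-body null replicate 2 (adjusted p = 0.054) or FL-NPM1c replicate 3 (adjusted p = 0.059).

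Against NTC DMSO, FL-NPM1c had ZEB1 (-0.37, adjusted p = 0.0075) and IGF2BP3 (-0.39, adjusted p = 0.0017) lower and MEF2D higher (0.28, adjusted p = 0.044). MEF2D was lost without NTC DMSO replicate 1 or 2 (adjusted p = 0.17 and 0.20) or any FL-NPM1c library (adjusted p from 0.097 to 0.11). C-body null had ZEB1 (-0.87, adjusted p = 3.1e-06), IGF2BP3 (-0.67, adjusted p = 7.2e-06) and TCF3 (-0.40, adjusted p = 0.0076) lower than NTC DMSO, and LMO3 higher (0.83, adjusted p = 0.024). LMO3 was lost without NTC DMSO replicate 2 or 3 (adjusted p = 0.096 and 0.052) or C-body null replicate 1 or 2 (adjusted p = 0.058 and 0.10).

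**Figure D4:**
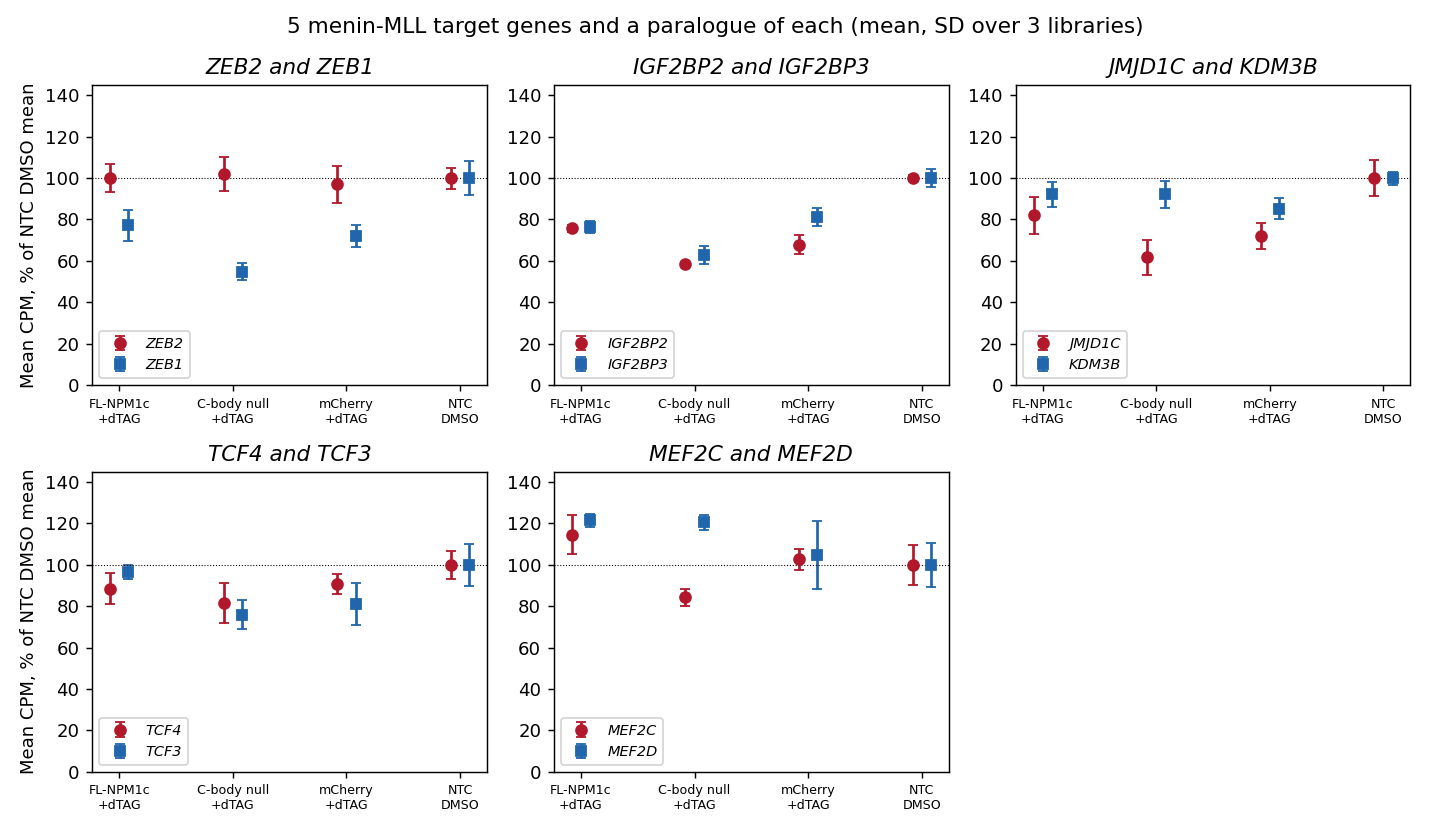
Mean level of 5 of the genes (red circles) and a relative of each (blue squares) in the 4 groups, as a percentage of the NTC DMSO mean, with SD over 3 libraries. ZEB2 stays near the NTC DMSO line while ZEB1 is below it in the 3 dTAG groups.

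Proteins that work with the 8 genes' products were counted from a list of 15, all of them tested. Among partners of LMO2, the haematopoietic factor GATA2 was lower in dTAG mCherry than in NTC DMSO (-0.60, adjusted p = 0.0035), in FL-NPM1c (-0.37, adjusted p = 0.042) and in C-body null (-0.94, adjusted p = 6.9e-05), and it was higher with FL-NPM1c than with C-body null (0.57, adjusted p = 0.013). The FL-NPM1c call against NTC DMSO ended under 9 of 14 alternatives, among them leaving out NTC DMSO replicate 1 or 3 (adjusted p = 0.092 and 0.14) or any FL-NPM1c library (adjusted p from 0.069 to 0.11). The call against C-body null ended without C-body null replicate 1 or 2 (adjusted p = 0.075 and 0.071). LDB1 and TAL1, which complete the LMO2 complex, were not called in any comparison, and TAL1 stayed under 1 CPM on average in each group.

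In dTAG mCherry against NTC DMSO 12.9% of all genes were higher and 9.69% lower. There 3 partners were higher, FLI1 (0.23, adjusted p = 0.020), ID2 (0.26, adjusted p = 0.026) and HDAC9 (0.39, adjusted p = 0.040), and 2 were lower, GATA2 and CTBP2 (-0.20, adjusted p = 0.044). ID2 holds E proteins such as TCF4 away from DNA, HDAC9 represses through MEF2 factors and CTBP2 is a corepressor used by ZEB factors. Each of these calls but that of GATA2 ended without NTC DMSO replicate 2 (adjusted p = 0.068, 0.12, 0.094 and 0.075 for FLI1, ID2, HDAC9 and CTBP2) and when mCherry replicate 1 was left out (adjusted p = 0.069, 0.077, 0.055 and 0.11). FLI1 and CTBP2 were also lost without NTC DMSO replicate 1 (adjusted p = 0.074 and 0.18), ID2 and CTBP2 without NTC DMSO replicate 3 (adjusted p = 0.083 and 0.052), CTBP2 without mCherry replicate 3 (adjusted p = 0.10), and HDAC9 without any of the 6 libraries (adjusted p from 0.051 to 0.10). In FL-NPM1c against dTAG mCherry, where 15.5% of all genes were called, ID2 was the 1 call, lower (-0.27, adjusted p = 0.030). It ended without any FL-NPM1c library (adjusted p from 0.063 to 0.092) or mCherry replicate 1 or 3 (adjusted p = 0.058 and 0.063). In C-body null against dTAG mCherry 0 were called. At an unadjusted p under 0.05, 1 partner was higher and 3 were lower. By that rule 6.37% of all genes were lower, and the share that was higher was not counted. DESeq2 called 1 partner higher and 1 lower, and over all genes 216 higher and 159 lower of about 18340.

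HDAC4, another partner of MEF2 factors, was lower with FL-NPM1c than with C-body null (-0.41, adjusted p = 0.0040) and higher with C-body null than in NTC DMSO (0.47, adjusted p = 4.8e-04). Its level was 22.8 ± 0.40 CPM in dTAG FL-NPM1c, 30.3 ± 1.13 in dTAG C-body null, 25.03 ± 1.33 in dTAG mCherry and 21.9 ± 1.66 in NTC DMSO. In C-body null against NTC DMSO FLI1 (0.30, adjusted p = 0.0033) and HDAC9 (0.39, adjusted p = 0.038) were also higher and CTBP2 (-0.25, adjusted p = 0.014) was also lower. HDAC9 was lost there without any NTC DMSO library (adjusted p from 0.051 to 0.099) or C-body null replicate 1 or 2 (adjusted p = 0.11 and 0.17), and CTBP2 without NTC DMSO replicate 1 (adjusted p = 0.082) or C-body null replicate 2 (adjusted p = 0.058).

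Several of the 8 genes have an antisense neighbour on the plus strand, and the strand setting of the counting is not given in the sources used here, so reads could have been assigned to either partner. Of 8 such neighbours 6 were tested. JMJD1C-AS1, which overlaps JMJD1C over 1335 bases and had 1.57% as many counts, averaged 1.61 ± 0.107 CPM in dTAG FL-NPM1c, 0.433 ± 0.0059 in dTAG C-body null, 0.909 ± 0.028 in dTAG mCherry and 1.87 ± 0.15 in NTC DMSO. It fell by 1.04 in dTAG mCherry against NTC DMSO (adjusted p = 1.9e-04), was 0.82 higher with FL-NPM1c than with mCherry (adjusted p = 0.0034) and was 1.88 higher with FL-NPM1c than with C-body null (adjusted p = 3.6e-06). C-body null against dTAG mCherry gave -1.06 (adjusted p = 0.018), a call that ended without any C-body null library (adjusted p = 0.086, 0.089 and 0.098 without replicates 1, 2 and 3) or dTAG mCherry replicate 1 or 3 (adjusted p = 0.084 and 0.065). FL-NPM1c against NTC DMSO gave -0.22 (adjusted p = 0.29) and C-body null against NTC DMSO gave -2.10 (adjusted p = 2.1e-07).

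SATB1-AS1 had 5.94% as many counts as SATB1. Between dTAG mCherry and NTC DMSO it gave -0.03 (adjusted p = 0.86), where SATB1 gave -0.61, and the difference between the genes was not tested. It was higher with FL-NPM1c than with C-body null (0.41, adjusted p = 0.014) and lower with C-body null than in NTC DMSO (-0.37, adjusted p = 0.012). These calls ended without C-body null replicate 3 (adjusted p = 0.099 and 0.072), and the first also without C-body null replicate 1 (adjusted p = 0.068) or FL-NPM1c replicate 1 or 2 (adjusted p = 0.051 and 0.063). The other also ended without NTC DMSO replicate 1 or 2 (adjusted p = 0.068 and 0.058). MEF2C-AS1 was higher in dTAG mCherry than in NTC DMSO (0.79, adjusted p = 0.0077; 0.073 without dTAG mCherry replicate 2 and NTC DMSO replicate 3), and ZEB2-AS1 was higher in C-body null than in NTC DMSO (0.41, adjusted p = 0.0088; 0.061 without C-body null replicate 2) and in FL-NPM1c than in NTC DMSO (0.30, adjusted p = 0.046). The call with FL-NPM1c ended under 12 of 14 alternatives, among them each omission of a library (adjusted p from 0.087 to 0.15).

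The genes whose levels ran most like each of the 8 across the 12 libraries were taken by Pearson correlation of log2 CPM among 13562 protein-coding genes. The 12 points share 4 groups and their scaling, so the values describe these libraries and carry no p. SATB1 ran most like CHST11 (r = 0.987), AVPR1B (0.982) and KCNMB4 (0.981). CHST11 averaged 221 CPM in dTAG FL-NPM1c, 163.7 in dTAG C-body null, 183.1 in dTAG mCherry and 236.1 in NTC DMSO. AVPR1B was low, at 1.83 CPM in dTAG FL-NPM1c, 0.28 in dTAG C-body null, 0.398 in dTAG mCherry and 2.09 in NTC DMSO. ADGRA3 ran most like SOBP (r = 0.989), BMP2 (0.984) and CDH6 (0.981). BMP2 averaged 119.7 CPM in dTAG FL-NPM1c, 49.4 in dTAG C-body null, 62.4 in dTAG mCherry and 99.0 in NTC DMSO, the order of groups seen for ADGRA3. CDH6 was low, at 2.98 CPM in dTAG FL-NPM1c, 0.288 in dTAG C-body null, 0.471 in dTAG mCherry and 1.69 in NTC DMSO. JMJD1C ran most like ROCK2 (r = 0.983), CDK6 (0.982) and TCAF1 (0.976), and CDK6 is itself among the other menin-MLL targets. It averaged 465 CPM in dTAG FL-NPM1c, 353.9 in dTAG C-body null, 419.3 in dTAG mCherry and 554.5 in NTC DMSO. IGF2BP2 ran most like TMEM268 (r = 0.990) and APOBEC3B (0.981). The leading genes of the others were CYBRD1 (r = 0.941) for MEF2C, ALDH1L2 (r = 0.928) for ZEB2, TPT1 (r = 0.961) for LMO2 and INPP4B (r = 0.961) for TCF4. The genes next to these were IL7R (0.928) and DACH1 (0.919) for MEF2C, NBPF1 (0.927) and ABL2 (0.922) for ZEB2, RMND1 (0.947) and UTP3 (0.942) for LMO2, and ATF7IP (0.955) and XRN1 (0.951) for TCF4.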

How the data were processed

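The 12 libraries came from a kit for stranded mRNA sequencing (per the labels' protocols). What the authors deposited is raw read counts per gene, keyed by Ensembl ID; STAR, featureCounts, DESeq2 and the hg38 build are named in the submitters' processing notes, without versions. Not given in the sources used here were the release of the gene annotation, whether strand was used in counting, and how reads that map to several places were handled. Of 78936 lines, 6 broken ones of 2 genes were left out. A column was given to the sample whose description has the same library number, which is an inference, and groups followed the titles. The cell line labels are numbered on from sample to sample, but the protocol has 1 line. Coordinates and exon lengths are those of GENCODE 29 (GRCh38), and start windows are those of RefSeq (GRCh38.p14).

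The tests used edgeR 4.0.16 (R 4.3.3). filterByExpr by group kept 24064 genes and removed 0.0795% of counts, TMM factors were 0.975 to 1.02, and 1 robust quasi-likelihood fit of all 12 libraries had a common biological coefficient of variation of 0.0975. Genes were called at an adjusted p under 0.05 (Benjamini-Hochberg over the genes tested). The SE of a log2 fold change was its size over the root of F. Replicates of each group differed beyond counting noise (chi-square per degree of freedom 3.72 to 37.7), so no library was a copy. Same-numbered libraries did not deviate together (residual correlation over 0.1 in 2 of 18 pairs), so the numbers were not used as pairs. Counts of all 12 libraries were simulated (24011 genes), and dTAG mCherry was tested against NTC DMSO. The test found 57 of 67 genes set to differ 1.5-fold, 67 of 67 at 2-fold and 66 of 66 at 4-fold. Of its 211 calls 21 were false, a larger share than the adjusted p of 0.05 aims at. Only genes above a low level were set to differ. Noise was independent between simulated libraries, so libraries that deviate together were not covered.

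The 8 genes and all lists were chosen with earlier results of these data known. A few genes of the lists or of the likeness ranking are not reported here. Of a list, each gene past the threshold was named, or the 2 with the largest change where more than 6 passed. Likeness used the 3 protein-coding genes with the highest Pearson correlation of log2 CPM (prior count 2). The settings tried instead were RLE factors, scaling by totals, no filter on low counts, a filter of 50 counts in at least 3 libraries, DESeq2 1.42.0, the 2 groups alone, the replicate block, each library left out in turn, and dTAG mCherry replicate 2 with NTC DMSO replicate 3 left out. Their use on the genes of the lists was added after seeing the data. Python 3.11.15 read the tables and drew the figures.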

Additional observations from a re-analysis of the deposited data

How the results depend on the processing

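Of 664 results for single genes of the 8 under an alternative, 609 kept their direction and their side of the threshold, 20 passed the threshold only under the alternative, 14 no longer passed and 21 changed sign. The calls of ADGRA3, SATB1 and IGF2BP2 in dTAG mCherry and C-body null against NTC DMSO and in FL-NPM1c against C-body null held under each alternative, as did ADGRA3 and SATB1 in FL-NPM1c against dTAG mCherry and JMJD1C in dTAG mCherry against NTC DMSO. The cause of the changes below was not tested. Counts were low for LMO3, TAL1, IGF2BP2-AS1, JMJD1C-AS1, AVPR1B and CDH6, which limits the precision of their values.

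The count of called genes among the 8 ranged over the omissions of single libraries from 4 to 5 in dTAG mCherry against NTC DMSO, 2 to 2 in FL-NPM1c against dTAG mCherry, 0 to 0 in C-body null against dTAG mCherry, 4 to 5 in FL-NPM1c against C-body null, 1 to 3 in FL-NPM1c against NTC DMSO and 4 to 6 in C-body null against NTC DMSO. Without dTAG mCherry replicate 2 and NTC DMSO replicate 3, C-body null against dTAG mCherry had 3. The 16 other targets ranged from 5 to 9 in dTAG mCherry against NTC DMSO, 2 to 5 in C-body null against dTAG mCherry and 5 to 12 in FL-NPM1c against NTC DMSO. In C-body null against dTAG mCherry they gave 10 without both libraries and 6 in DESeq2.

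Over all genes, dTAG mCherry against NTC DMSO had 5429 calls, or 3402 with the 2 groups alone. FL-NPM1c against dTAG mCherry had 3735, from 1621 to 6834 when single libraries were left out (6834 without dTAG mCherry replicate 2) and 8369 without both libraries. C-body null against dTAG mCherry had 143, from 60 to 1399 (1399 without dTAG mCherry replicate 2), 368 without a filter, 63 with the 2 groups alone, 375 in DESeq2 and 3957 without both libraries. FL-NPM1c against C-body null had 2329, from 1365 to 2148, or 4410 with the 2 groups alone, and FL-NPM1c against NTC DMSO had 6712, from 4190 to 7807.

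The replicate numbers do not pair the libraries (0 of 12 libraries correlated best with their own number). With the replicate block, C-body null against dTAG mCherry had 86 calls over all genes, and of the 8 genes' calls it ended TCF4 in C-body null against NTC DMSO (-0.30, adjusted p = 0.0502), as did library totals (-0.27, adjusted p = 0.054).

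Among uncalled values near 0, the log2 fold change changed sign as follows, with the range over omissions of single libraries. In dTAG mCherry against NTC DMSO MEF2C ranged from -0.042 to 0.091 and had -0.0030 without both of those libraries, and ZEB2 ranged from -0.11 to 0.015. In FL-NPM1c against dTAG mCherry ZEB2 ranged from -0.048 to 0.12, and LMO2 ranged from -0.026 to 0.085 and had -0.059 without both of those libraries. ZEB2 ranged from -0.12 to 0.0049 in FL-NPM1c against C-body null and from -0.023 to 0.090 in C-body null against NTC DMSO. In FL-NPM1c against NTC DMSO it ranged from -0.056 to 0.033, and had -0.016 with RLE factors, -0.019 without a filter, -0.025 with the 2 groups alone, -0.023 in DESeq2 and -0.036 without both of those libraries.

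Values that passed only under an alternative were LMO2 in dTAG mCherry against NTC DMSO with library totals (adjusted p = 0.029), with at least 50 counts (adjusted p = 0.039) and without both of those libraries (adjusted p = 0.0036), JMJD1C in FL-NPM1c against NTC DMSO with RLE factors (adjusted p = 0.048), without a filter (adjusted p = 0.011), with the 2 groups alone (adjusted p = 0.017) and without both of those libraries (adjusted p = 0.028), and MEF2C in C-body null against NTC DMSO with RLE factors (adjusted p = 0.048), without a filter (adjusted p = 0.045) and without both of those libraries (adjusted p = 0.0055). Of 89 calls of genes in the lists, 37 ended under at least 1 alternative and 0 changed sign.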
